A study of Mus musculus with 8 samples.

Results

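The DNA replication and mitosis genes examined here are 37 genes that act when a cell copies its DNA and divides, and they are often read as a measure of how many cells of a tissue are cycling. They were chosen by name, and each was taken from the row of the count table whose Ensembl identifier carries that mouse symbol. All 37 were found among the 53012 genes of the table. By role, 16 of them belong to DNA replication and 21 to mitosis and its control.

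Islets of 17-month-old mice were compared by bulk RNA-seq, with 1 library for each mouse. The 4 βIgf1r mice (label CTRL, mice M148, M151, M152 and M153) were Ins1-CreERT2−/− Igf1r flox/flox and received corn oil. The 4 βIgf1rKD mice (label KD, mice M145, M146, M149 and M150) were Ins1-CreERT2+/− Igf1r flox/flox and were given tamoxifen in 5 injections of 0.075 mg/g each, and islets were taken 7 days after the last injection. All 8 mice carried the floxed exon 3 of Igf1r, the gene of the IGF-1 receptor. Tamoxifen, Cre and the loss of the receptor occur together in the βIgf1rKD group and cannot be told apart. The Cre is driven by an insulin gene promoter, so that recombination is directed to β-cells, while the libraries hold the RNA of every cell of the islet preparation. Both groups held males and females, which are not marked for each mouse.

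Before a cell divides, Cdc6 and Cdt1 load the MCM2-7 helicase onto replication origins, a step called licensing. Cdc45 and the GINS proteins then turn the loaded ring into an active helicase, PCNA holds the polymerases on the DNA, and ribonucleotide reductase and thymidylate synthase supply the deoxynucleotides. Later in the cycle cyclin A and cyclin B activate CDK1, Aurora and Polo kinases build the spindle, and the spindle checkpoint holds back Cdc20 until every chromosome is attached. Most genes of the replication group are switched by E2F factors, which bind to variants of a GC-rich site, while many mitotic genes are kept off in resting cells and switched on later through a CHR element (cell cycle genes homology region), usually with CCAAT boxes nearby. β-cells of adult mice divide rarely, and less with age.

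The promoters of the members carry these elements to different degrees, and 5 of them are shown because they illustrate the licensing genes (Mcm5, Mcm6) and the mitotic genes (Cdc20, Ccnb2, Mki67). Each runs 5′ to 3′ along the gene's own strand, from 200 bases before to 30 bases after the RefSeq start site (build GRCm38.p6), and capitals mark an E2F motif, a CHR or a CCAAT box on either strand.
Mcm5 (chr8:75109309-75109538, plus strand): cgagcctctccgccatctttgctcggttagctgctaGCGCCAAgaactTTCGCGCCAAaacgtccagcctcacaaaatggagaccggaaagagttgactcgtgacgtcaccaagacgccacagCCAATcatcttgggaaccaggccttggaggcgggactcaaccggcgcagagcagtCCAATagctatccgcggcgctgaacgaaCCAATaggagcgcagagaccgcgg
Mcm6 (chr1:128359676-128359905, minus strand): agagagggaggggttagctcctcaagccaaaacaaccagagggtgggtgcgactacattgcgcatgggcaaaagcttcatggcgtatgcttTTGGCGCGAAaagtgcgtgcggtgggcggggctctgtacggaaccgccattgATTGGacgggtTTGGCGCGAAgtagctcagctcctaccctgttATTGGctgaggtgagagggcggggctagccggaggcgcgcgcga
Cdc20 (chr4:118437314-118437543, minus strand): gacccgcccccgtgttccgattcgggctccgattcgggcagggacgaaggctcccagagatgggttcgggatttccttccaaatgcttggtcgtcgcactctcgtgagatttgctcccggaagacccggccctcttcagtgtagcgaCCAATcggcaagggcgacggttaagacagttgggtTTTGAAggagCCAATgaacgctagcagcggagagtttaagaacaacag
Ccnb2 (chr9:70421525-70421754, minus strand): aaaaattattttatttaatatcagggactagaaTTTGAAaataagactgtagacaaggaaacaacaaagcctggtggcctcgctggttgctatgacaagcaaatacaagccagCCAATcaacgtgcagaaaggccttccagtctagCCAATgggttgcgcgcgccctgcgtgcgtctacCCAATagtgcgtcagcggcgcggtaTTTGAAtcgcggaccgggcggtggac
Mki67 (chr7:135716350-135716579, minus strand): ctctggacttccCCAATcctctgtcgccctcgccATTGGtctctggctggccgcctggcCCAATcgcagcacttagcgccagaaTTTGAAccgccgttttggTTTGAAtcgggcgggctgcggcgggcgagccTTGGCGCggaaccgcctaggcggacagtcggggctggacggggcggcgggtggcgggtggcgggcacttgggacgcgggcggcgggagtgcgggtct

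The Mcm5 stretch held 3 matches to the E2F motif and 3 CCAAT boxes, and no CHR. In Mcm6, TTGGCGC and GCGCGAA overlapped in a shared run that occurred at 2 places, giving 4 E2F matches. Cdc20 had the CHR TTTGAA with its first base 18 bases before the start, between CCAAT boxes beginning 53 and 8 bases before it, and no E2F motif. Ccnb2 held 2 CHRs and 3 CCAAT boxes, and Mki67 held 2 CHRs, 3 CCAAT boxes and the E2F match TTGGCGC. The Mki67 gene thus had all 3 kinds of motif in this stretch.

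Across the windows of 300 bases that RefSeq start sites gave for 29 of the 37 members, the share of genes with each motif differed between the roles. The E2F motif was searched as TTGGCGC, with TTCGCGC as another spelling, then TTCCCGC, and finally TTGCCGC, while the CHR was searched as TTTGAA or else TTCGAA and the CCAAT box under its own letters, each on both strands and with overlapping matches allowed. An E2F motif was present in 8 of 13 replication members (61.5%) and in 5 of 16 mitosis members (31.3%), against 13.7% of 17491 protein-coding genes. A CHR was present in 3 of the 13 replication members (23.1%) and in 12 of the 16 mitosis members (75.0%), against 20.2% of all protein-coding genes. CCAAT boxes were found in 10 of 13 and 15 of 16 members of these groups, against 42.3% of all. Of the 7 licensing genes with a window, 6 held an E2F motif, and the exception was Mcm2, while none of the 3 helicase activation and clamp genes with a window (Cdc45, Mcm10 and Pcna) held an E2F motif and Cdc45 held a CHR. All 3 checkpoint genes, Bub1, Bub1b and Cdc20, held a CHR and a CCAAT box. A match describes the letters of the window and does not show that a factor binds there. Foxm1, Gins1, Gins2, Mcm4, Kif20a, Aurkb, Tpx2 and Ccna2 are among the members and have no promoter described here.

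**Figure D1:**
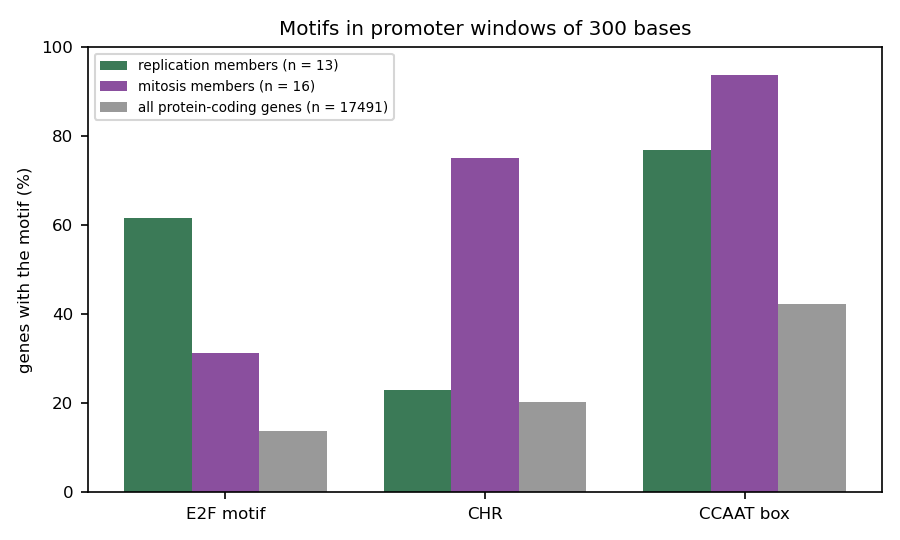
Share of genes (vertical axis, percent) whose promoter window of 300 bases holds each motif, for 13 replication members (green), 16 mitosis members (purple) and 17491 protein-coding genes (grey). The E2F motif was most frequent in replication members (61.5%) and the CHR in mitosis members (75.0%).

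The libraries held 21634080 to 42391328 counts per mouse. Levels are given as CPM, the count scaled to library size with TMM factors, and the level per length divides CPM by the kilobases of annotated exon. Igf1r, the targeted gene, stood at 46.8, 48.0, 60.9 and 58.7 CPM in the βIgf1r mice and at 46.9, 50.2, 57.9 and 47.8 CPM in the βIgf1rKD mice, so that the groups overlapped. Its log2 fold change, βIgf1rKD over βIgf1r, was −0.08 with a standard error (SE) of 0.11, and a count over the whole gene does not single out exon 3. Of the islet endocrine markers, 11 of 11 were measured. Their summed level was 206410 to 240698 CPM in the βIgf1r mice and 165760 to 225393 CPM in the βIgf1rKD mice. Among them 8 had a log2 fold change below 0 and 3 above, with a median of −0.10. Acinar enzyme genes summed to 14922 to 151443 CPM in the βIgf1r mice and 33154 to 185594 CPM in the βIgf1rKD mice.

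Most members were expressed at low levels, the replication genes on the whole above the mitotic genes, with overlap between both groups. Per length, Pcna was the highest member at 11.2 ± 1.02 CPM per kb (SD, n = 8), at percentile 82.4 of the genes tested. Mcm7, Mcm6 and Mcm4 followed at 2.43 ± 0.433, 2.23 ± 0.312 and 2.09 ± 0.302 CPM per kb, and these 3 levels did not differ beyond their spread. Mki67, which encodes the proliferation antigen Ki-67, was at 0.195 ± 0.135 CPM per kb, percentile 6.33. At the low end, the replication genes Cdc6 and Gins2 had 5 to 14 and 10 to 20 counts per mouse, fewer than the 28 to 119 counts of Foxm1. The median over the tested replication members was 0.942 CPM per kb and over the tested mitosis members 0.223 CPM per kb, beside 2.98 CPM per kb over all genes tested. The summed CPM of all 37 members was 0.0120% of a library on average.

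A filter on low counts, at least 10 counts scaled to library size in at least 4 mice, kept 15474 genes and 32 of the members. The 5 members below it were Mcm10 with 5 to 17 counts per mouse, Gins1 with 5 to 13, Aurkb with 2 to 24, Bub1 with 2 to 10 and Kif11 with 4 to 22. They encode a helicase cofactor, a GINS subunit, the Aurora kinase of the passenger complex, a checkpoint kinase and the spindle motor Eg5. Their groups overlapped in every case, and they were not tested.

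**Figure D2:**
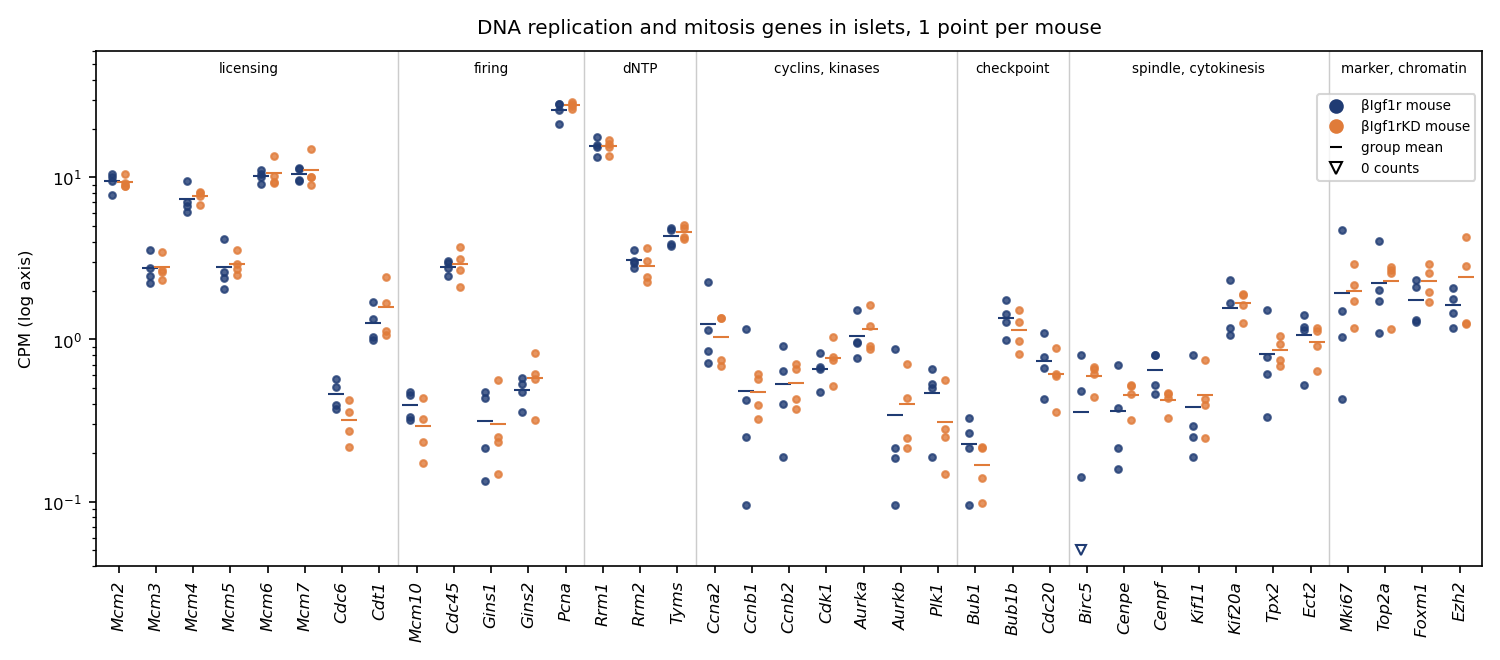
CPM of the 37 members (log axis) in each of 4 βIgf1r mice (blue) and 4 βIgf1rKD mice (orange), grouped by role; short lines are group means and the open triangle marks 0 counts. The groups overlap in every member, and Pcna is the highest at 21.5 to 29.2 CPM.

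The comparison of βIgf1rKD with βIgf1r islets asked whether lowering the IGF-1 receptor in β-cells of old mice moved these genes. No member passed the test in either direction. At an unadjusted p under 0.05 in edgeR's quasi-likelihood test, 0 of the 32 tested members were called, against 4.12% of all genes tested, of which 2.23% were higher and 1.89% lower in βIgf1rKD islets. After Benjamini-Hochberg adjustment over all genes tested, edgeR called 0 members and 0.0% of all genes, the smallest adjusted p of a member was 0.987, and the other tools, DESeq2 and limma-voom, also called 0 members, with 8 and 1 calls among all genes. The mice of the groups overlapped in all 32 members, while 2.22% of all genes had groups that did not overlap, 0.956% with higher and 1.27% with lower values in βIgf1rKD islets. All 11 endothelial markers had a log2 fold change below 0, 5 of them at an unadjusted p under 0.05, and their summed level was 459 to 582 CPM in βIgf1r and 410 to 461 CPM in βIgf1rKD mice. Of the 12 acinar markers 11 had a log2 fold change above 0, with a median of 0.84 and 0 at an unadjusted p under 0.05. No defining gene of either list was at 0 in every mouse, and with the acinar score as a covariate 0 members passed the test. The part of endothelial cells in these values was not tested. The libraries are labelled as separate mice, so the spread behind these p-values is that between animals.

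Fold changes were on the whole measured more closely for replication genes than for mitotic genes. Of the 32 members 21 had a log2 fold change above 0 (65.6%, beside 52.3% of all genes tested) and 11 below 0, with a median of 0.05, beside 0.01 over all genes tested. This balance was not stable, since the median was −0.033 with Xist and −0.061 with the leukocyte score as a covariate, and without M149 only 5 replication members were above 0. They ran from −0.66 for Plk1 to 0.68 for Birc5, and 5 of 32 were larger than their own SE, beside 5336 of 15474 genes tested. The median SE was 0.18 for the 14 replication members and 0.41 for the 18 mitosis members, although Cdc6, Cdt1 and Gins2 had SEs of 0.32 to 0.34, above those of Foxm1, Bub1b and Kif20a (0.28 to 0.29). The 95% interval lay within −1 and 1 on the log2 scale, that is, it left out a change of 2-fold, for 11 of the 14 replication members and for 8 of the 18 mitosis members, against 83.1% of all genes tested. The members' intervals that crossed these limits do not exclude a 2-fold change.

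**Figure D3:**
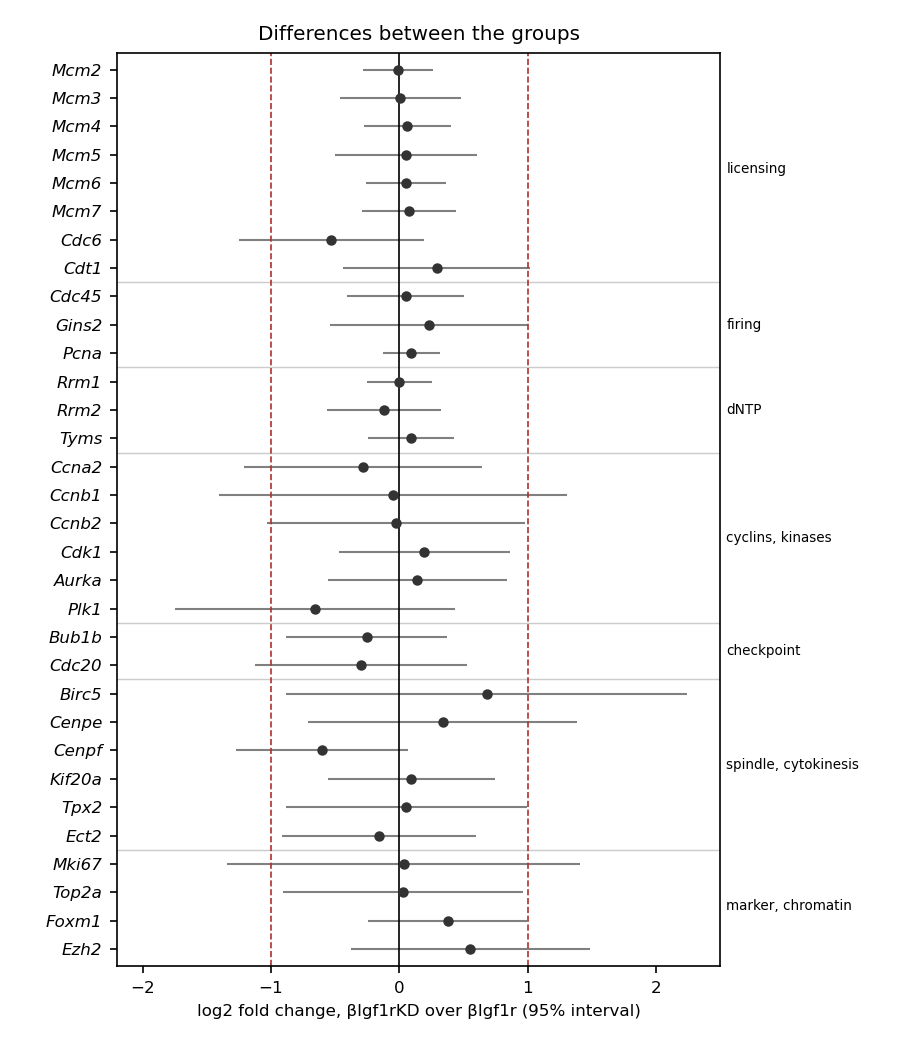
Log2 fold change of βIgf1rKD over βIgf1r (horizontal axis) with its 95% interval for the 32 tested members, by role; dashed lines mark −1 and 1. All intervals include 0, and those of the replication genes are narrower than those of Ccnb1, Birc5 and Mki67.

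Among the licensing genes, the MCM2-7 subunits, which form the helicase ring, differed little between the groups. Mcm2 was at 10.1, 9.49, 10.4 and 7.73 CPM in the βIgf1r mice and 8.80, 10.5, 9.27 and 8.85 CPM in the βIgf1rKD mice, a log2 fold change of −0.01 (95% interval −0.28 to 0.26). Mcm6 was at 11.1, 10.1, 10.5 and 9.10 CPM against 9.40, 10.2, 13.6 and 9.22 CPM, a log2 fold change of 0.05 (95% interval −0.26 to 0.37). The highest Mcm6 value was that of M149, and the other 3 βIgf1rKD mice lay within the range of the controls. Mcm7 had the same highest mouse, with 9.64, 11.5, 11.2 and 9.43 CPM against 10.1, 10.1, 14.97 and 8.95 CPM and a log2 fold change of 0.08 (SE 0.16). Mcm3 (2.24 to 3.56 CPM), Mcm4 (6.11 to 9.53 CPM) and Mcm5 (2.04 to 4.18 CPM) had log2 fold changes of 0.01, 0.06 and 0.05, and all 3 were highest in the βIgf1r mouse M151. Without M149 the log2 fold changes of Mcm6 and Mcm7 were −0.09 and −0.11.

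The loaders of the helicase were lower in abundance. Cdc6, which brings MCM2-7 to the origin, had 0.373, 0.509, 0.392 and 0.569 CPM in the βIgf1r mice and 0.421, 0.357, 0.218 and 0.271 CPM in the βIgf1rKD mice, from 5 to 14 counts per mouse. Its log2 fold change of −0.53 (SE 0.32) was the third lowest of the members, and M145 lay inside the control range. Over the 70 ways to divide the mice, the exact permutation test (two-sided) gave p = 0.114 for Cdc6, where the smallest value possible is 0.0286. Cdt1, its partner, had a log2 fold change of 0.29 (SE 0.32).

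Pcna, the sliding clamp, was the most precisely measured member. It stood at 26.2, 28.5, 21.5 and 28.2 CPM in the βIgf1r mice and at 28.2, 26.3, 29.2 and 27.5 CPM in the βIgf1rKD mice. The 4 βIgf1rKD values fell within a narrow range, and the control M152 was the lowest of the 8 mice. The log2 fold change of 0.09 had a 95% interval of −0.13 to 0.31. Cdc45 and Gins2 of the active helicase had log2 fold changes of 0.05 and 0.23. In the deoxynucleotide group, Rrm1 and Rrm2, the subunits of ribonucleotide reductase, had 0.00 (SE 0.11) and −0.12 (SE 0.20), and Tyms, thymidylate synthase, 0.09 (SE 0.15).

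Mki67 varied more between mice of a group than between the groups. It was at 1.04, 4.77, 1.495 and 0.427 CPM in the βIgf1r mice, from 39, 131, 42 and 9 counts, and at 2.90, 1.18, 2.18 and 1.73 CPM in the βIgf1rKD mice, from 62, 33, 50 and 70 counts. The highest and the lowest mouse were both controls, M151 and M153, and they were 11.2-fold apart. Their 95% Poisson intervals, which cover counting error only, were 3.98 to 5.65 CPM and 0.195 to 0.810 CPM and did not meet. The group means were 1.93 ± 1.94 CPM and 1.995 ± 0.729 CPM (SD, n = 4 each), and the log2 fold change of 0.03 had a 95% interval of −1.34 to 1.41. Without M151 the log2 fold change was 0.99, and without M153 it was −0.29. Top2a, the topoisomerase that untangles replicated chromosomes, followed the same order at its ends, with 1.73, 4.07, 2.03 and 1.09 CPM against 2.67, 2.78, 2.57 and 1.16 CPM and a log2 fold change of 0.03 (SE 0.42).

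The transcription factor Foxm1, which activates mitotic genes, was at 2.32, 2.11, 1.28 and 1.33 CPM in the βIgf1r mice and 2.57, 1.71, 1.96 and 2.93 CPM in the βIgf1rKD mice. Its log2 fold change was 0.38 (SE 0.28), and the groups overlapped. Ezh2, the histone H3 lysine methyltransferase of the Polycomb complex, was at 1.78, 2.07, 1.46 and 1.18 CPM against 2.85, 1.25, 4.31 and 1.26 CPM. The log2 fold change of 0.55 (SE 0.42) came with M145 and M149 above every control and with M146 and M150 among them.

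The mitotic cyclins and kinases were also low and spread widely. Ccnb1, which encodes cyclin B1, was at 0.426, 1.16, 0.249 and 0.0948 CPM in the βIgf1r mice and 0.608, 0.321, 0.392 and 0.567 CPM in the βIgf1rKD mice, from 2 to 32 counts. The control mice M151 and M153 were again the ends, 12.3-fold apart, and the log2 fold change was −0.05 (SE 0.60). Ccna2, cyclin A2, was at 1.14, 2.26, 0.854 and 0.711 CPM against 1.36, 0.750, 1.35 and 0.691 CPM, with a log2 fold change of −0.28 (SE 0.41). Cdk1, the kinase that both cyclins activate, had 0.825, 0.655, 0.676 and 0.474 CPM against 1.03, 0.750, 0.784 and 0.518 CPM, a log2 fold change of 0.20 (95% interval −0.47 to 0.87). Plk1, the Polo kinase, had the lowest fold change of all members, with 0.532, 0.655, 0.498 and 0.190 CPM against 0.281, 0.250, 0.566 and 0.148 CPM and a log2 fold change of −0.66 (SE 0.49). The groups overlapped in each of these 4 genes. Without M149, the highest βIgf1rKD mouse for Plk1, its log2 fold change was −1.10, at an unadjusted p of 0.0477 in edgeR's test.

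Of the spindle genes, Cenpf and Birc5 stood at opposite ends. Cenpf, a large kinetochore protein, was at 0.799, 0.8003, 0.463 and 0.521 CPM in the βIgf1r mice and 0.327, 0.464, 0.435 and 0.469 CPM in the βIgf1rKD mice, from 7 to 30 counts. It had the smallest p of the members, 0.0727 unadjusted in edgeR's test, with a log2 fold change of −0.60 (SE 0.30), and M152 was the only control within the βIgf1rKD range. The exact two-sided permutation test gave p = 0.0857 for it. Without M152 the log2 fold change of Cenpf was −0.73, at an unadjusted p of 0.0487 in edgeR's test. Its groups then did not overlap, which follows from leaving out the only control inside the βIgf1rKD range. Birc5, survivin, a subunit of the chromosomal passenger complex, had 18, 22, 4 and 0 counts in the βIgf1r mice and 13, 19, 15 and 18 counts in the βIgf1rKD mice. The 0 counts of M153 allow up to 0.142 CPM (3 counts), and M148 and M151 lay among or above the βIgf1rKD mice. The log2 fold change of 0.68 (95% interval −0.88 to 2.24) was the highest of the members, and it was 1.42 with limma-voom and 1.55 with the acinar score as a covariate, neither past an unadjusted p of 0.05. Ect2, which starts the cytokinetic furrow, had 1.198, 1.42, 1.14 and 0.521 CPM against 1.17, 0.643, 0.914 and 1.13 CPM, with a log2 fold change of −0.16 (SE 0.34).

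The mice themselves differed in the level of the mitotic genes as a group. The 21 mitosis members summed to 18.7, 32.6, 16.4 and 11.7 CPM in the βIgf1r mice and to 25.1, 18.5, 23.6 and 16.97 CPM in the βIgf1rKD mice, a 2.80-fold range. The 16 replication members summed to 97.9, 108, 90.6 and 94.2 CPM against 98.9, 97.0, 114 and 94.3 CPM, a 1.26-fold range. The lowest and the highest mitosis sums were both in control mice. Of the 18 tested mitosis members, 14 were highest in M151, where their median deviation from the mean of the 8 mice was 0.73 on the log2 CPM scale, and 9 were lowest in M153, where it was −0.57. Of the 14 tested replication members, 7 were highest in M149 and 4 in M151. In bulk samples, fewer cells of a type and less RNA per cell cannot be told apart.

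**Figure D4:**
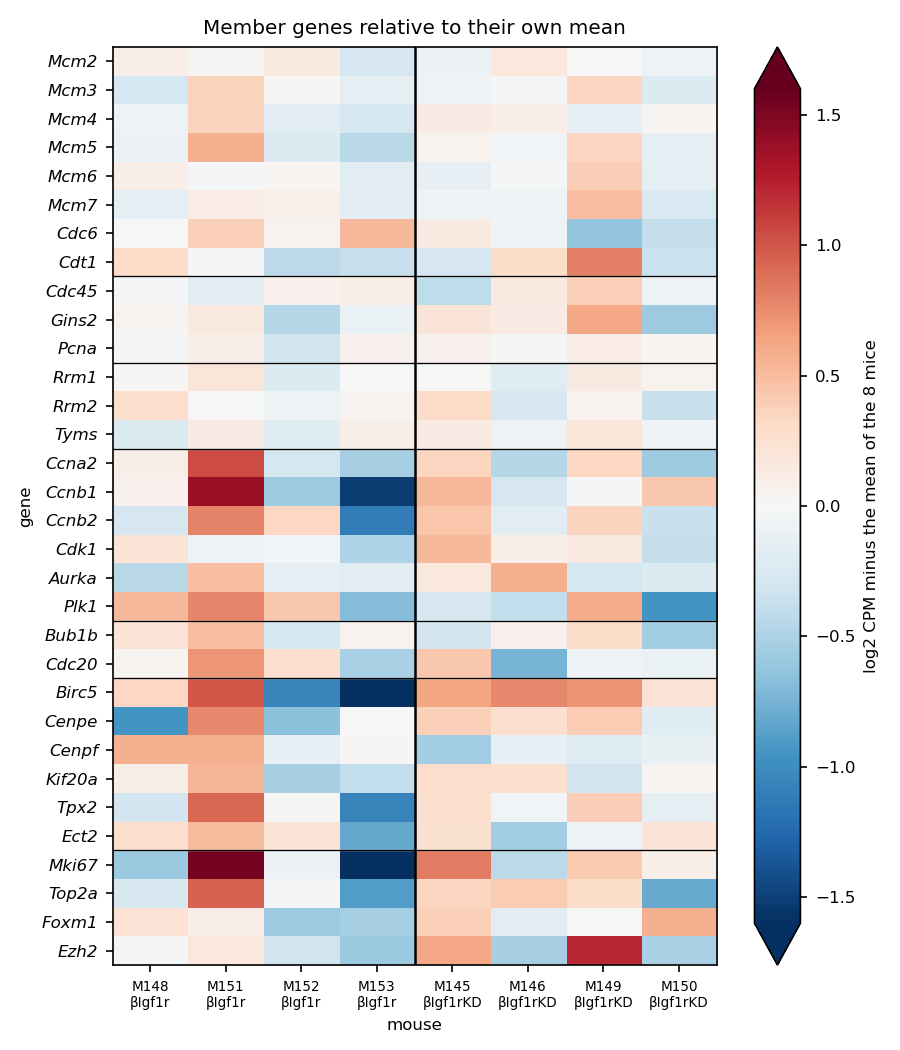
Log2 CPM of each of the 32 tested members (rows) minus its mean over the 8 mice, with βIgf1r mice left and βIgf1rKD mice right of the black line; red is above and blue below the mean, and the colours end at −1.6 and 1.6. Mitotic genes are mostly red in M151 and blue in M153, which belong to the same group.

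Most mitosis members also moved with Mki67 from mouse to mouse. Over the 8 mice, 17 of the 17 other mitosis members had a positive Pearson correlation of log2 CPM with Mki67, with a median r of 0.59, and 12 had r over 0.5. The lowest was Cenpf at r = 0.006, near 0, and its Spearman rho was −0.238. For the 14 replication members the median r was 0.28 and 3 exceeded 0.5, and over all other genes tested the median was 0.02 and 11.3% exceeded 0.5. By Spearman's rho the medians of the mitosis and replication members were closer, at 0.619 and 0.488. Tpx2, which activates Aurora A on the spindle, had the highest value (r = 0.963, exact permutation p = 0.000794; Spearman rho = 0.905, exact permutation p = 0.00456; n = 8). It was followed by Ccnb2, which encodes cyclin B2 (r = 0.925, rho = 0.857), and by Ccnb1 (r = 0.911, rho = 0.786), while Mcm5 was highest among the replication genes (r = 0.859, rho = 0.786). Adjusted over the 15473 genes correlated with Mki67, no member passed the threshold by either measure, and Tpx2 had an adjusted exact permutation p of 0.462. At an unadjusted exact permutation p under 0.05 for Pearson's r there were 10 of 31 members, beside 6.68% of all genes.

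For the mitosis members these relations were on the whole weaker without both extreme mice. Without M151 alone r was lower for most of them, though their median was not. That median r was 0.62 for the mitosis members and 0.23 for the replication members. Among the mitosis members r rose without M151 only for Cdk1, Foxm1 and Ezh2. It turned negative for Bub1b (−0.33) and Cenpf (−0.58). Without M151 and M153, the mice farthest from the median of Mki67, the median r of the mitosis members was 0.32 and that of the replication members 0.28. In those 6 mice r was 0.805 for Tpx2, 0.705 for Ccnb2, 0.532 for Ccnb1 and 0.511 for Mcm5, and 0.254 for Top2a. With the group means removed, the median r of the mitosis members was 0.66. Rrm2 (r = 0.08, rho = 0.095) showed little relation to Mki67 over the 8 mice. For Pcna the 2 measures differed, with r = 0.20 and rho = 0.619 (exact permutation p = 0.115 for rho). The MCM2-7 subunits, which work in a fixed ratio in the protein ring, did not all vary alike, since r between subunits ran from −0.20 for Mcm4 with Mcm6 to 0.85 for Mcm3 with Mcm7 (median 0.41 over 15 combinations). All these genes share the 8 libraries, and low counts weaken a correlation.

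**Figure D5:**
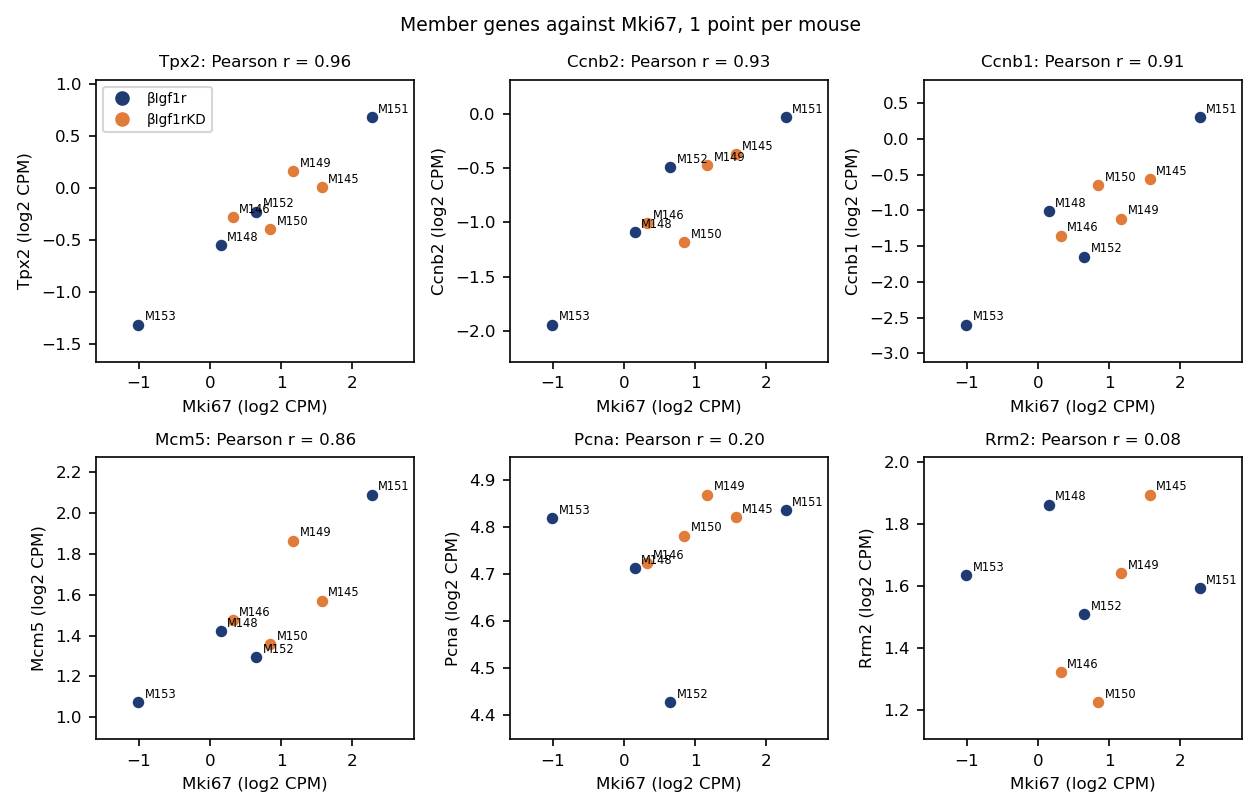
Log2 CPM of 6 members (vertical axes) against that of Mki67 (horizontal axes), 1 point per mouse, βIgf1r mice in blue and βIgf1rKD mice in orange. Tpx2, Ccnb2, Ccnb1 and Mcm5 were lowest in M153 and highest in M151, while Rrm2 shows little relation. Pcna has a low Pearson r (0.20) but a Spearman rho of 0.619.

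Markers of macrophages and lymphocytes moved with Mki67 as well. Of the 12 genes of that list 8 passed the filter, the T and B cell genes Cd3e, Cd3g, Cd79b and Ms4a1 were below it, and none was at 0 in every mouse. The summed level of the list was 193 to 379 CPM in the βIgf1r mice and 256 to 350 CPM in the βIgf1rKD mice. It was highest in M151 and lowest in M148 and M153. The mean z-score of the list correlated with Mki67 with r = 0.823 (exact permutation p = 0.00972, adjusted over 6 marker lists 0.0583) and rho = 0.905 (exact permutation p = 0.00456, adjusted 0.0274), and r was 0.665 without M151 and M153. These adjustments cover the 6 lists only. Tpx2, with the same rho, had an adjusted exact permutation p of 0.512 over all genes, so the 2 cannot be ranked by adjusted p. Within the βIgf1r mice r of the list was 0.922, and within the βIgf1rKD mice 0.388. Over the same 8 mice, r with Mki67 was −0.484 for islet endocrine markers, 0.0273 for acinar, −0.547 for endothelial, 0.144 for fibroblast and pericyte and 0.0507 for duct markers, none of which passed the exact permutation test. Without M151 and M153, r was −0.852 for islet, 0.832 for acinar, −0.671 for endothelial, 0.116 for fibroblast and pericyte and 0.704 for duct markers, so that in the remaining 6 mice 4 lists had a larger r in size than the leukocyte list. The part of these cells in the differences between mice was not tested. With the leukocyte score as a covariate, the comparison of the groups gave a log2 fold change of −0.11 for Mki67, and again no member passed the test.

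Other genes of the same pathways, from lists of 49 replication, 68 mitosis and 19 regulator genes, were also near the background. Of 47 tested genes of replication, 1 was higher and 1 lower at an unadjusted p under 0.05, which is 4.26%. Of 42 tested genes of mitosis, 1 was lower (2.38%), and of 18 tested regulators 1 was higher (5.56%), each beside the 4.12% of all genes. None passed after adjustment over all genes (edgeR, adjusted p = 0.987 for each of the 4 genes below).

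Tipin, which protects the replication fork together with Timeless, was at 11.3, 9.57, 10.1 and 12.1 CPM in the βIgf1r mice and 8.28, 7.89, 8.10 and 8.71 CPM in the βIgf1rKD mice. Its groups did not overlap, and its log2 fold change was −0.39 (SE 0.11, unadjusted p = 0.00464). Pole3, a histone-fold subunit of DNA polymerase epsilon, was at 9.50, 10.04, 8.69 and 9.95 CPM against 11.1, 11.3, 11.8 and 10.8 CPM, without overlap, with a log2 fold change of 0.24 (SE 0.09, unadjusted p = 0.0258). Anln, the actin-binding anillin of the cytokinetic ring, was at 0.905, 0.8003, 1.07 and 1.09 CPM against 0.749, 0.428, 0.392 and 0.469 CPM, also without overlap, with a log2 fold change of −0.93 (SE 0.28, unadjusted p = 0.00923). Lin37, a subunit of the MuvB core that binds the CHR, was at 7.61, 7.75, 9.97 and 7.96 CPM against 9.73, 11.2, 10.4 and 10.7 CPM, where M152 reached into the βIgf1rKD range, with a log2 fold change of 0.34 (SE 0.11, unadjusted p = 0.0155). For Tipin, Pole3 and Anln the exact two-sided permutation test gave 0.0286, the smallest value that 70 assignments can give. Every gene whose groups do not overlap gets this value, as did 2.22% of all genes tested. It therefore repeats the lack of overlap and adds no separate test.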

How the data were processed

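RNA was measured in islets of 8 mice, 4 βIgf1r and 4 βIgf1rKD, grouped by the sample labels. Per the labels, TruSeq stranded mRNA libraries were sequenced. The authors deposited estimated counts per gene, in 1 column per mouse, not scaled between mice, and the submitters' processing notes name fastp, kallisto and GRCm38. The annotation release is not given in the sources used here. Every column was matched to its mouse, and 51906 of 53012 identifiers to a symbol with GENCODE M21, whose coordinates and exons were used.

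The estimated counts were rounded. The groups were compared by the quasi-likelihood test of edgeR 4.0.16 in R 4.3.3 with TMM factors, filterByExpr defaults and Benjamini-Hochberg adjustment over the 15474 genes kept. Log2 CPM used a prior count of 2. Correlations were tested over all 40320 pairings of the mice. Those of the members with Mki67 were adjusted over all genes tested, a wider adjustment than that over the members alone planned at first. Those of the marker lists with Mki67 were adjusted over the marker lists only. Those of Spc25 were adjusted only over its relations to G6pc2 and Mki67. The depth, 21634080 to 42391328 counts, gives small counting errors for Pcna and large ones for genes with under 20 counts. Promoters were those of RefSeq, 250 bases before to 50 after a start.

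The members and lists were chosen with earlier results of these data known. The genes named are 16 members fixed by name, the 3 highest and 3 lowest fold changes, members below the filter, the other pathway genes at an unadjusted p under 0.05 or without overlap, and Igf1r; the few other members named were chosen by value or as members of a role. A pathway gene, Fam64a, was not matched to a symbol. The alternatives were RLE factors, DESeq2 1.42.0, limma-voom (limma 3.58.1), other filters, covariates (Xist, acinar or leukocyte score), a prior count of 0.5, another library total, and leaving out each mouse. The scripts were tested on simulated counts.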

Additional observations from a re-analysis of the deposited data

Results flagged for a closer look

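Of 56 sets of 4 mice, that is the named genes in each group, 2 held a mouse whose distance to its nearest neighbour exceeded Dixon's 95% critical share of the range, where chance gives about 2.8. Top2a was lowest in the βIgf1rKD mouse M150, at 0.30 log2 CPM, while the other 3 mice of the group lay between 1.40 and 1.51 log2 CPM. Lin37 was highest in the βIgf1r mouse M152, at 3.33 log2 CPM, with the other 3 mice between 2.94 and 3.01 log2 CPM.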

How the results depend on the processing

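No paired analysis was possible because no mouse number occurs in both groups. In every alternative no member passed the adjusted threshold and, outside the fits that left out a mouse, none passed the unadjusted one. DESeq2 called 8 genes and limma-voom 1 gene among all genes after adjustment. Without the filter, 643 genes were higher and 455 lower at an unadjusted p under 0.05, and 6 replication members lay below 0. With 10 counts in every mouse, 1 pathway gene was lower, and 6 mitosis members lay above and 3 below 0, since only 22 members were tested. With the Xist covariate 729 genes were higher, 5 replication members lay below 0, 5 mitosis members above and 13 below, and the log2 fold change turned for Mki67 (−0.055), Top2a (−0.075), Mcm4 (−0.071) and Igf1r (0.023). With the acinar score 222 genes were higher and 191 lower, and Mcm2 (0.038), Mcm3 (−0.017) and Ccnb1 (0.46) turned. Ccnb1 also turned with limma-voom (0.35). With the leukocyte score 1 pathway gene was higher, 5 replication members lay above and 9 below 0, and Mki67 (−0.11), Top2a (−0.093), Mcm3 (−0.14), Mcm4 (−0.0031), Mcm5 (−0.12), Mcm6 (−0.0053) and Mcm7 (−0.047) turned. The cause was not tested, and each of these values was smaller than its error. The log2 difference of the summed CPM was 0.06, and −0.17 when libraries were scaled without acinar and hormone genes.

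Leaving out a mouse gave 0 to 1 members lower at an unadjusted p under 0.05 (Cenpf without M152, Plk1 without M149) and 0 to 1 members without overlap (Cenpf without M152, Cdc6 without M145). In Cenpf and Cdc6 that mouse was the only one of its group inside the other group's range. The lack of overlap follows from leaving it out. Pathway genes higher numbered 1 to 3. Among all genes 188 to 646 were higher, 180 to 468 lower, and 538 to 1215 without overlap. Replication members above 0 numbered 5 (without M149) to 13 and below 0 numbered 3 to 10, and mitosis members below 0 numbered 5 (without M151) to 13 (without M153). The log2 fold changes ranged from −0.29 to 0.99 for Mki67, −0.19 to 0.49 for Top2a, −0.098 to 0.039 for Mcm2, −0.12 to 0.16 for Mcm3, −0.016 to 0.21 for Mcm4, −0.071 to 0.31 for Mcm5, −0.089 to 0.11 for Mcm6, −0.11 to 0.17 for Mcm7, −0.46 to 0.17 for Ccna2 and −0.36 to 0.80 for Ccnb1. At this depth 5 members stayed below the filter on low counts and were not tested.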

Other observations

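Spc25, a gene of the list of other mitosis genes, stood apart from its partners, and it is described here because of its values. It encodes a subunit of the NDC80 complex, which ties microtubules to kinetochores, together with Ndc80, Nuf2 and Spc24. Spc25 was at 62.6 to 120 CPM in the 8 mice. Ndc80 was at 0.0714 to 0.582 CPM, Nuf2 at 0.0948 to 0.608 CPM and Spc24 at 1.01 to 1.65 CPM. Per length, Spc25 was at 19.6 to 37.8 CPM per kb and the highest of the other 3, Spc24, at 0.393 to 0.641 CPM per kb, so that the ranges of these levels were far apart.

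The Spc25 gene (chr2:69193895-69206194, minus strand, GRCm38) lies head to head with G6pc2 (chr2:69211073-69227841, plus strand), with 4878 bases between their 5′ ends. G6pc2 is an islet gene of the glucose-6-phosphatase family that was at 922 to 1615 CPM. Over the 8 mice log2 CPM of Spc25 correlated with that of G6pc2 with r = 0.924 (exact permutation p = 0.00201, adjusted over 2 relations 0.00402) and rho = 0.929 (exact permutation p = 0.00223, adjusted 0.00446), and r was 0.872 without M149 and M152, the mice farthest from the median of Spc25. With Mki67, Spc25 had r = −0.195 (exact permutation p = 0.640) and rho = −0.190 (exact permutation p = 0.665). Both genes were looked at because of these values. The p-values, adjusted over 2 relations only, do not count that search and are descriptive. The relation of Spc25 to G6pc2 was not tested further.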
